A study of Mus musculus with 14 samples.

Results

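Nanog, Gdf3, Dppa3 and Apobec1 are neighbours on mouse chromosome 6. They were taken as 4 of the 25131 rows of a gene count table, together with every peak between positions 122500000 and 122850000 of the GRCm38 genome. That window of 350 kb held 50 of the 53367 RCOR2 peaks, 1 of the 13 TALE 1 peaks and 1 of the 4 TALE 2 peaks. The study looked for proteins at the Nanog promoter, mapped where one of them, RCOR2, binds, and measured gene expression after its loss. All 14 samples were C57BL/6 mouse embryonic stem cells (ESCs) cultured with serum, leukemia inhibitory factor and the 2i pair of kinase inhibitors, which act on MEK and GSK3. RNA-seq covered 2 libraries of Rcor2 knockout (KO) cells and 2 of wild-type (WT) cells. TALE 1 and TALE 2 (2 samples each) are tagged DNA-binding proteins, expressed in the cells and pulled down with an anti-HA resin. They serve to isolate their locus, which the labels give as the Nanog locus, and 1 input sample went with them. RCOR2 chromatin immunoprecipitation (ChIP) used the same tag in 2 samples of cells that express RCOR2-HA, with 2 negative controls, of which replicate 1 was WT cells and replicate 2 expressed mCherry. The first ChIP and its control were read single-end and the second pair paired-end, on different Illumina instruments. The ATAC-seq sample (1), the input and the controls were not analysed here. The labels name neither the part of Rcor2 that was deleted, nor a clone, nor separate cultures, so p-values measure only how far these libraries differ from each other, a spread that may be technical.

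Nanog encodes a homeodomain transcription factor that sustains self-renewal of pluripotent cells. Gdf3 encodes a ligand of the TGF-beta family that signals through Nodal receptors and their coreceptor. Dppa3 (also Stella or PGC7) encodes a maternal and germ cell factor that holds back DNA methylation through the methylation cofactor UHRF1, and Apobec1 encodes the cytidine deaminase that edits apolipoprotein B mRNA. The region between Dppa3 and Nanog is known in mouse ESCs to carry enhancers of Nanog. RCOR2 belongs to the CoREST family of corepressors, which act together with histone deacetylases and with LSD1, a histone demethylase.

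The promoters below are shown because the TALE and RCOR2 peaks overlap the one of Nanog and no peak overlaps the one of Apobec1. Both come from RefSeq on GRCm38.p6, run from 250 bases before to 50 after the annotated start site, and were the entries found for 2 of the 4 members, Gdf3 and Dppa3 being unmatched. The Nanog entry lies at chr6:122707239-122707538 on the plus strand and the Apobec1 entry at chr6:122602395-122602694 on the minus strand. Capitals mark the letters matched on either strand, named in the next paragraph.
Nanog: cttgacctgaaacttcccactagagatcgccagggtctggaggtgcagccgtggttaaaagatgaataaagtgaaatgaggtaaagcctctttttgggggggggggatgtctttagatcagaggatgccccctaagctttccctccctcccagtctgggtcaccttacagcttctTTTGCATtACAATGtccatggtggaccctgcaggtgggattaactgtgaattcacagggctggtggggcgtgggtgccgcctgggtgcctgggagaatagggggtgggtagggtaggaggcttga
Apobec1: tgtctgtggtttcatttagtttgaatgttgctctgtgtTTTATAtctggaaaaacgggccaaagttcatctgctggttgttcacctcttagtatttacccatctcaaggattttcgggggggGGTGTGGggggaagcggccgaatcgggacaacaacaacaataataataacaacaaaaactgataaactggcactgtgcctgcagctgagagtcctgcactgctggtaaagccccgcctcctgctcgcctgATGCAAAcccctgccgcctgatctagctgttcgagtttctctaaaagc

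The Nanog promoter held TTTGCAT, the core of the POU octamer, at bases 176 to 182 (chromosome 6, 122707414 to 122707420), starting at −75 bp from the start site. One base further, at bases 184 to 189 (122707422 to 122707427), lay CATTGT, the core letters of a SOX motif, on the opposite strand. Of 32851 promoters of the same length, 4.63% held TTTGCAT, 12.6% held CATTGT and 0.128% (42 promoters) held both at most 3 bases apart, a spacing chosen after the positions were seen. The Apobec1 promoter held TTTGCAT at bases 253 to 259, CCACACC (KLF; 7.58% of promoters) at bases 123 to 129 and TATAAA (13.6%) at bases 39 to 44, each on the strand opposite to the gene. AAGGTCA (ESRRB), present in 4.72% of promoters, was found in neither. The Nanog promoter held 4 CG pairs and the Apobec1 promoter 9, against a median of 7. A match describes these letters only.

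Both TALE peaks and the RCOR2 peak at the Nanog promoter lay over those letters. The labels name the Nanog locus for both TALE proteins, so TALE peaks there follow from the design and are no independent finding. The TALE 1 peak (122707127 to 122707588, 462 bp) and the TALE 2 peak (122707253 to 122707576, 324 bp) lay wholly inside the RCOR2 peak of 712 bp (122706925 to 122707636) and covered 64.9% and 45.5% of it. Relative to the start site at 122707489, the TALE 1 summit lay at −146 bp, the TALE 2 summit at −43 bp and the RCOR2 summit at −398 bp. The POU letters lay inside all 3 peaks, with their centre at 74 bp from the TALE 1 summit, −29 bp from the TALE 2 summit and 326 bp from the RCOR2 summit, counted in the direction of the gene. RefSeq gives a second Nanog start site at 122707565, from which the RCOR2 summit lies at −474 bp. TALE 1 was enriched 13.6-fold at its summit, TALE 2 9.91-fold and RCOR2 7.58-fold, from lists called separately, so these folds are not compared with each other. By −log10 q, the caller's significance, the TALE 1 peak ranked 3 of the 13 in its list and the TALE 2 peak 1 of 4.

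RCOR2 peaks were dense in the window as a whole and lay unevenly along it. The window held 14.3 peaks per 100 kb, against 1.87 on chromosome 6. Of 7768 stretches of 350 kb laid end to end along the chromosomes, 99.5% held fewer peaks, 36 held as many or more and the median held 4. The median fold at the summit was 4.15 in the window and 4.38 in the whole list, and the median −log10 q, the caller's significance, was 4.33 in the window and 5.08 in the list. Peaks with a −log10 q of at least 15 made up 16.0% of the window (8 peaks) and 7.57% of the list. Folds and −log10 q values are the authors' own, from 1 list for both RCOR2 libraries, so no replicate check of a peak was possible.

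The stretch between Dppa3 and Nanog, 77.2 kb long, held 20 of the 50 summits, and no summit fell inside Apobec1. When peaks at most 5 kb apart were joined, they formed 12 runs. The run around Nanog held 13 peaks over 30.3 kb, from −17.1 kb to 13.2 kb of the gene's start. Another run of 11 peaks lay from −47.9 kb to −33.1 kb of the Nanog start. A run of 7 peaks lay inside Slc2a3, the gene of a glucose transporter that follows Nanog. These were the 3 runs with the most peaks, drawn in the plot of peaks along the locus.

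**Figure D1:**
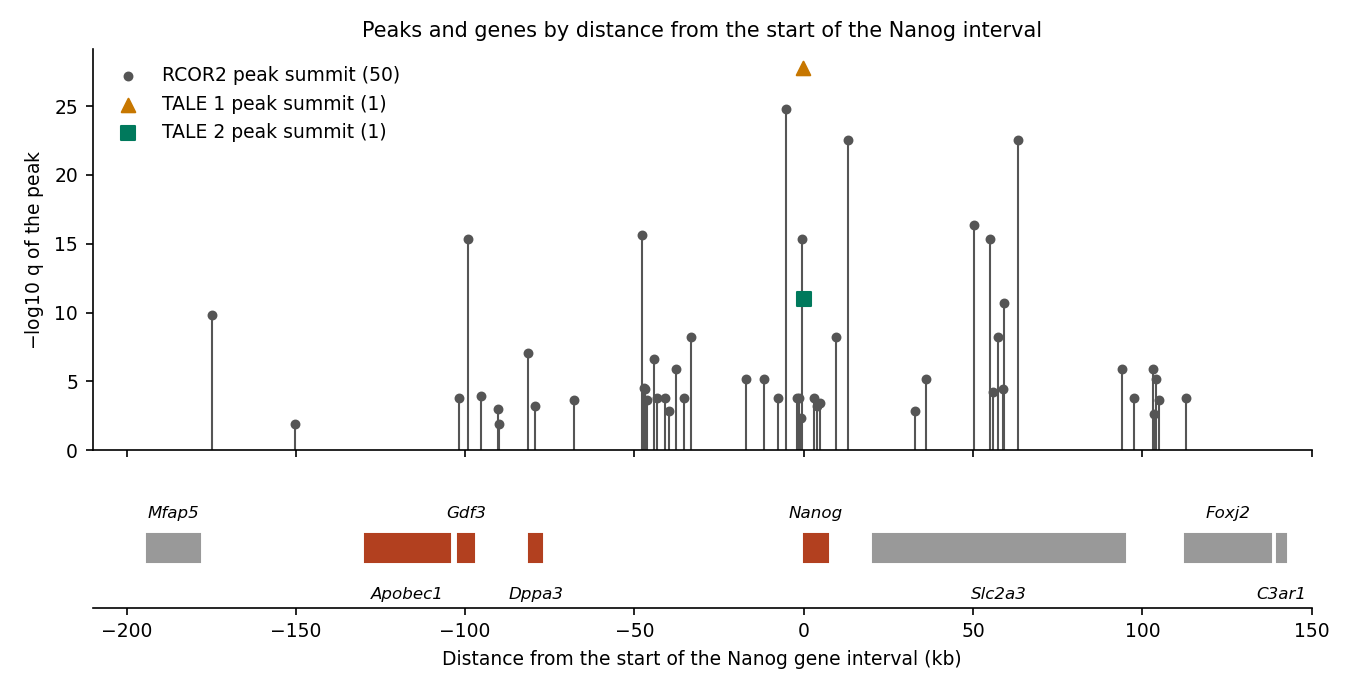
RCOR2 and TALE peaks along the 350 kb window, by distance from the annotated start of Nanog (kb, x axis) and −log10 q as deposited (y axis), with the intervals of 8 genes of the window drawn underneath. The tallest RCOR2 mark stands 5161 bp before Nanog at 24.8, and no mark stands over Apobec1.

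The strongest RCOR2 peak of the window was not the one at the Nanog promoter. It lay at 122701446 to 122702894 (1449 bp), with its summit 5161 bp before Nanog, a 10.1-fold enrichment and a −log10 q of 24.8. The peak at 122720109 to 122720655, with its summit 13048 bp after the Nanog start, reached 9.64-fold and 22.6, and so did the Slc2a3 peak at 122769931 to 122771319 in its −log10 q, at 9.41-fold. The Nanog promoter peak had a −log10 q of 15.4, and 5 peaks of the window had a higher one. The first peak of the upstream run of 11, at 122659551 to 122659872, had 7.68-fold and 15.7. The same fold and −log10 q as at the Nanog promoter were listed for 317 peaks, 3 of them in the window.

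The number of RCOR2 summits within 1 kb of a member's interval was 5 at Nanog, 2 at Gdf3, 2 at Dppa3 and 0 at Apobec1. Among 10215 tested genes, 80.3% had at least 1 such summit, 48.1% at least 2 and 9.92% at least 5. The stronger Gdf3 peak (122607851 to 122608366, 516 bp) lay inside the gene, with 7.58-fold and a −log10 q of 15.4, above 92.5% of the list. The stronger Dppa3 peak (122626066 to 122626340) had its summit 244 bp before the gene interval, with 5.07-fold and 7.05, above 69.4% of the list. Apobec1 lay in the widest stretch of the window without a peak, 48.2 kb long from 122557239 to 122605445. The RCOR2 summit nearest to the start site of the promoter shown (122602444) lay at −3141 bp on its strand, inside Gdf3. The Apobec1 interval reaches further upstream, to 122603024, so that start site is not at its outer edge. With a −log10 q of at least 5, Nanog, Gdf3 and Dppa3 kept 1 summit each within 1 kb.

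The RNA-seq libraries held 2951498 and 1974865 counts in KO and 2368804 and 1286393 in WT. Of 10241 genes tested with edgeR's quasi-likelihood test, 2014 (19.7%) had a Benjamini-Hochberg adjusted p under 0.05, which is called a change here. Genes of chromosome 6 were mostly higher in KO. Their median log2 fold change, KO over WT, was 0.92 over 502 genes, and 58.6% of them were called, 56.2% higher and 2.39% lower in KO. The medians over the genes of chromosome 6 in the 4 pairs of libraries were 0.87 to 0.93 (SD 0.0246), and those of 10 Mb bins along the chromosome were 0.57 to 1.17, with 0.92 over 73 genes in the bin of the cluster. Chromosomes 3, 8 and 11 had medians of 0.48, 0.52 and −0.49, and the other chromosomes −0.16 to −0.00. Rcor2, on chromosome 19, had 157 and 103 counts in KO, against 193 and 107 counts in WT, or 53.6 ± 0.211 CPM in KO and 80.8 ± 0.116 CPM in WT (counts per 1000000 after scaling, mean ± SD, n = 2 each). Its log2 fold change was −0.59 (SE 0.23, adjusted p = 0.0636, edgeR), and since the deleted part is not given this does not check the genotype. ESC markers summed to 5297 and 5211 CPM in KO and 4960 and 4897 CPM in WT. All 12 were tested, 3 higher (Nanog among them) and 2 lower, beside 10.4% higher and 9.3% lower of all genes tested. Fibroblast markers summed to 12.5 to 18.5 CPM in KO and 17.6 to 28.0 CPM in WT, and primitive endoderm markers to 3.12 to 7.19 CPM in KO and 1.67 to 5.29 CPM in WT, with Foxa2 at 0. Of 6 trophoblast markers the 3 tested, Gata3, Tead4 and Eomes, were higher in KO, beside the same shares of all genes. Tead4 lies on chromosome 6, where 56.2% of genes were called higher, and was at 1.93 (SE 0.39) with that chromosome's median set to 0. The trophoblast list summed to 102 and 116 CPM in KO and 16.3 and 22.7 CPM in WT. The part of such cells in the members' values was not tested.

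In the KO libraries Nanog and Gdf3 were higher, Dppa3 was lower and Apobec1 was not called. Of the 4 members, all tested, 2 were called higher in KO, beside 10.4% of all genes tested and 56.2% of those on chromosome 6, and 1 was called lower, beside 9.3% of all genes and 2.39% of those on chromosome 6. On the chromosome's own scale, its median change was set to 0 in the same test. There Dppa3 and Nanog were called lower in KO and Gdf3 and Apobec1 were not called. Of the chromosome 6 genes, 10.8% were lower, 10.6% higher and 21.3% called in all on that scale. The median entered as a fixed value, so adjusted p-values on that scale leave out its own spread. The centred test was not repeated with a library left out. In bulk RNA, fewer cells that express a gene and less RNA per cell cannot be told apart.

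Nanog, the homeodomain factor, had 1858 and 1184 counts in KO, against 1070 and 592 counts in WT. On the CPM scale this was 637 and 615 CPM in KO and 448 and 448 CPM in WT. Both KO libraries stood above both WT libraries, and the WT libraries were nearly equal. The groups did not overlap for 82.3% of the chromosome 6 genes tested and 56.9% of all genes tested. The means were 626 ± 15.3 CPM in KO and 448 ± 0.00609 CPM in WT (SD, n = 2 each), a 1.40-fold higher level in KO, with a log2 fold change of 0.48 (SE 0.15, adjusted p = 0.0127, edgeR). Without KO replicate 1 the log2 fold change was 0.46 (adjusted p = 0.184) and without KO replicate 2 it was 0.52 (adjusted p = 0.134), so the call was lost without either KO library. In such fits the lone library is assumed to vary like the pair of the other group. The spread is estimated from that pair and moderated toward a trend over the genes tested. The change was smaller than the chromosome's median: with that median at 0 the log2 fold change turned to −0.44 (SE 0.15, adjusted p = 0.0294, edgeR), and 24.3% of the 502 genes of chromosome 6 had a lower value.

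Gdf3, the TGF-beta family ligand, had 573 and 404 counts in KO, against 278 and 152 counts in WT. That was 196 and 210 CPM in KO and 116 and 115 CPM in WT. The KO libraries were both higher and the groups did not overlap, as for 82.3% of the chromosome 6 genes tested and 56.9% of all. The means were 203 ± 9.54 CPM in KO and 116 ± 0.969 CPM in WT (SD, n = 2 each), 1.75-fold higher in KO, with a log2 fold change of 0.81 (SE 0.18, adjusted p = 0.000463, edgeR). Set against the chromosome's median, Gdf3 was in the middle of its neighbours, at −0.11 (SE 0.18, adjusted p = 0.746, edgeR), with 43.8% of chromosome 6 genes lower.

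Dppa3, the factor that holds back DNA methylation, had 322 and 143 counts in KO, against 645 and 324 counts in WT. That was 110 and 74.3 CPM in KO and 270 and 245 CPM in WT. The KO libraries were both lower, with KO replicate 2 the lowest of the 4. Groups apart in either direction were seen for 82.3% of the chromosome 6 genes tested and 56.9% of all. The means were 92.3 ± 25.5 CPM in KO and 257 ± 17.6 CPM in WT (SD, n = 2 each), a log2 fold change of −1.47 (SE 0.18, adjusted p = 7.12e-09, edgeR), or 2.77-fold higher in WT. It was among the 12 genes of chromosome 6 called lower in KO and ranked 10 from the lowest of the 502 tested. With the chromosome's median at 0 its log2 fold change was −2.39 (SE 0.19, adjusted p = 1.71e-15, edgeR). Dppa3 and Nanog have pseudogenes on other chromosomes, and how reads shared with those copies were counted is not known.

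Dppa3 is also expressed in primordial germ cells, of which 7 markers were listed. They summed to 142 and 132 CPM in KO and 522 and 528 CPM in WT. Of the 6 tested, 0 were called higher and 3 lower in KO, beside 10.4% higher and 9.3% lower of all genes tested. Dnd1 was not called, at 0.18 on the log2 scale. Dazl, an RNA-binding protein of germ cells, was called lower at −3.07 (SE 0.19). It made up most of the summed difference, with 39.4 and 32.7 CPM in KO and 321 and 289 CPM in WT. Tfap2c, a transcription factor of germ cells and trophoblast, was called lower at −1.44 (SE 0.25). Kit, a receptor tyrosine kinase, was the other, at −0.91 (SE 0.25), with an adjusted p up to 0.137 (edgeR) when KO replicate 2 or WT replicate 1 was left out. Their part in the Dppa3 result was not tested. Markers of 2-cell-like cells were at 0 and 0 CPM in KO and 1.67 and 0.756 CPM in WT.

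Apobec1, the cytidine deaminase, had the fewest counts of the members, 32 and 23 counts in KO, against 13 and 7 counts in WT. That was 11.0 and 11.9 CPM in KO and 5.44 and 5.29 CPM in WT. The groups did not overlap, as was the case for 82.3% of the chromosome 6 genes tested and 56.9% of all genes tested. The log2 fold change was 1.08 (SE 0.62, adjusted p = 0.232, edgeR), which was not called. The ratio of summed counts per total, KO over WT, was 2.04 with an exact 95% interval of 1.20 to 3.59 that covers counting error only. Set against the chromosome, it was at 0.17 (SE 0.62, adjusted p = 0.902, edgeR).

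**Figure D2:**
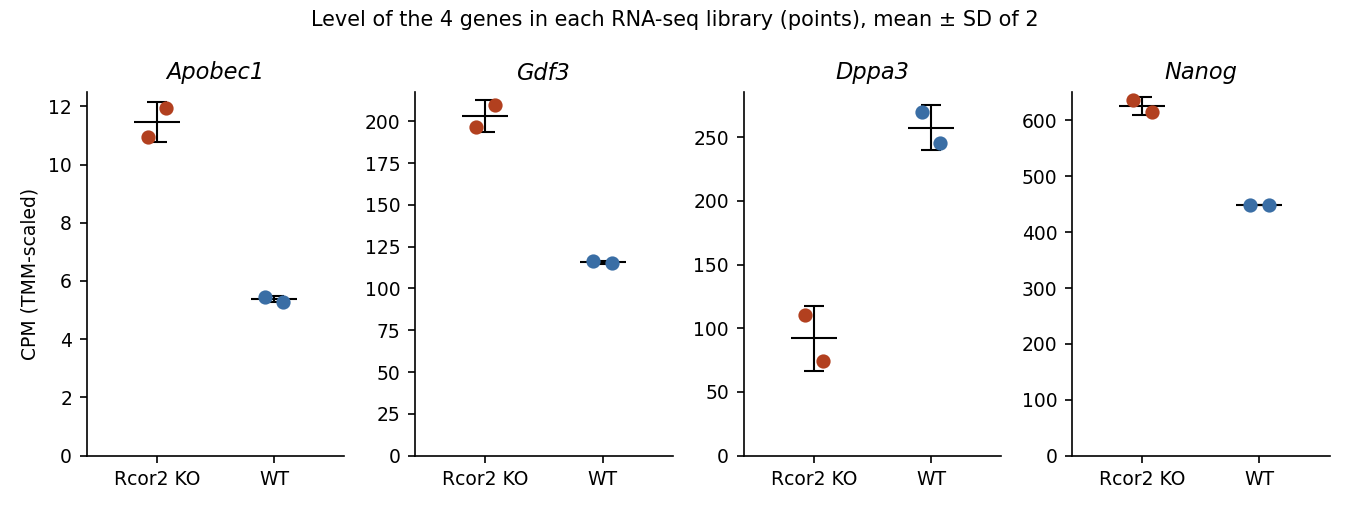
Level of each member in every RNA-seq library (CPM on the y axis), KO libraries left of WT libraries, each point 1 library, with lines and bars for the mean ± SD of 2. Nanog, Gdf3 and Apobec1 points lie higher in KO, at 637 and 615, 196 and 210, and 11.0 and 11.9, and Dppa3 points lie higher in WT, at 270 and 245.

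Levels of 1 gene against another within a library do not depend on depth or scaling. The count of Dppa3 per count of Nanog was 0.173 and 0.121 in KO, against 0.603 and 0.547 in WT. The ratio was 3.91-fold higher in WT, on the means of each group. Per count of Gdf3, Dppa3 gave 0.562 and 0.354 in KO and 2.32 and 2.13 in WT, a ratio 4.86-fold higher in WT. Gdf3 per count of Nanog was 0.308 and 0.341 in KO and 0.260 and 0.257 in WT, 1.26-fold higher in KO on the means. Apobec1 per count of Gdf3 was 0.0558 and 0.0569 in KO and 0.0468 and 0.0461 in WT. All these ratios left the groups apart, as CPM did for 56.9% of all genes tested and 82.3% of those on chromosome 6. The share over other pairs of genes was not computed. With 2 libraries a group an exact permutation test cannot go below a two-sided p of 0.333. Apobec1 ratios rest on 32 and 23 counts in KO and 13 and 7 in WT, and their counting error was not computed.

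**Figure D3:**
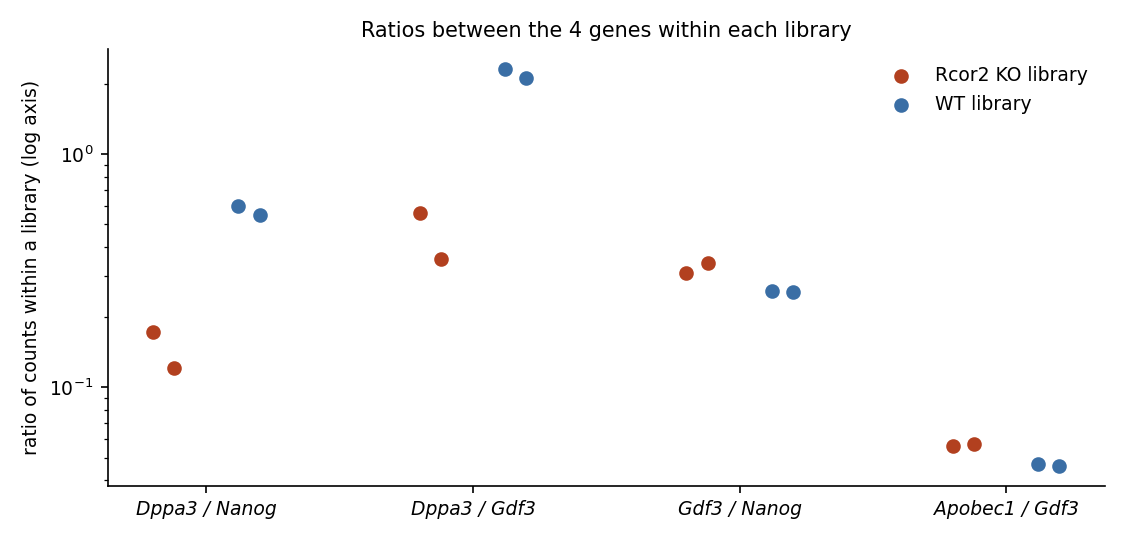
Ratio of counts between 2 members in each library (y axis, log scale), KO libraries left of WT libraries. Dppa3 per Nanog lies at 0.173 and 0.121 in KO and at 0.603 and 0.547 in WT, Dppa3 per Gdf3 at 0.562 and 0.354 in KO and at 2.32 and 2.13 in WT, and the pairs without Dppa3 lie closer together.

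Genes next to the members did not follow a single pattern. Slc2a3, from 122727809 to 122802363, had 3656 and 2738 counts in KO, against 832 and 490 counts in WT, or 1253 and 1422 CPM in KO and 348 and 371 CPM in WT. Both KO libraries stood above both WT libraries. Groups did not overlap for 82.3% of the chromosome 6 genes tested and 56.9% of all genes tested. Slc2a3 was called higher in KO at 1.90 (SE 0.15, adjusted p = 1.66e-15, edgeR), or 3.72-fold. It was still called at 0.98 (adjusted p = 7.51e-07, edgeR) with the chromosome's median at 0. Mfap5, a microfibril protein, had 19 and 16 counts in KO and 8 and 6 counts in WT and was not called, at 0.92 (SE 0.72, adjusted p = 0.411, edgeR). Foxj2, a forkhead factor, had 16 and 8 counts in KO and 14 and 11 counts in WT and was not called, at −0.50 (SE 0.69, adjusted p = 0.684, edgeR). C3ar1 and Mir7231 were at 0 in every library. Before the window, Rimklb, an amino acid ligase, had 113 and 79 counts in KO and 103 and 53 counts in WT and was not called, at −0.07 (SE 0.29, adjusted p = 0.915, edgeR), but was called lower with the chromosome's median at 0, at −0.99 (adjusted p = 0.0112, edgeR). After the window, Necap1, an endocytosis protein, had 259 and 183 counts in KO and 126 and 75 counts in WT. It was called higher in KO, at 0.75 (SE 0.23, adjusted p = 0.0131, edgeR), and turned to −0.17 (adjusted p = 0.686, edgeR) with the chromosome's median at 0. Its call was lost, with an adjusted p of 0.0593 by DESeq2 and of 0.0753 without KO replicate 1, 0.116 without KO replicate 2 and 0.0839 without WT replicate 1 (edgeR).

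**Figure D4:**
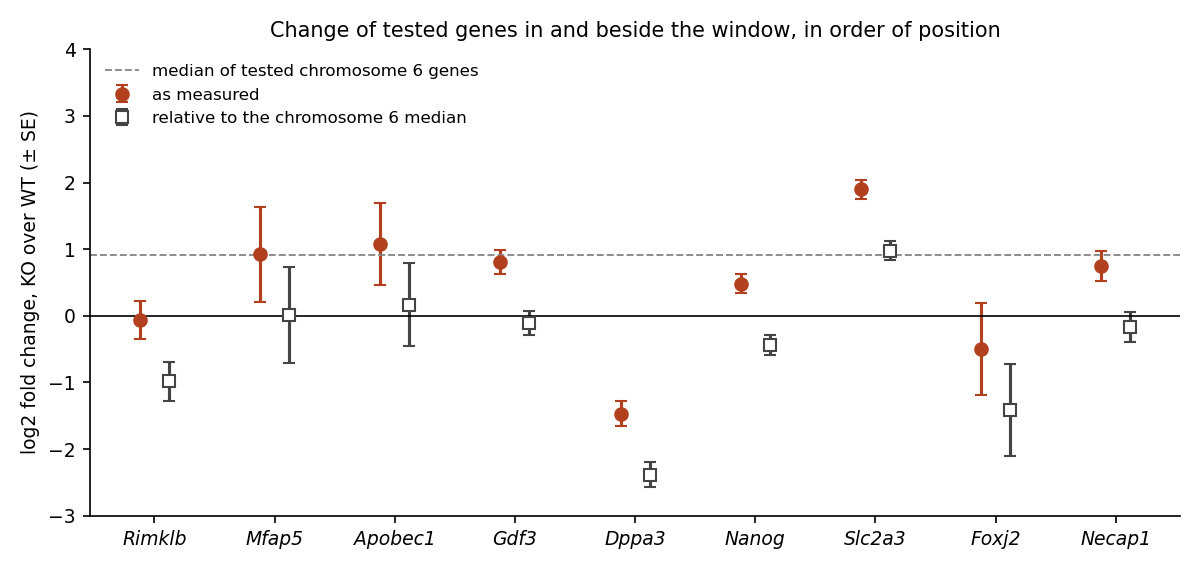
Log2 fold change, KO over WT, of the members and the other tested genes of the window and its edges, with SE bars, on the edgeR scale and with the chromosome 6 median at 0. Dppa3 lies at −1.47 and Slc2a3 at 1.90, with Nanog at 0.48, Gdf3 at 0.81 and Apobec1 at 1.08 between them.

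The middle 50% of chromosome 6 genes lay between 0.50 and 1.35 on the log2 scale and 10% lay below −0.05, against −0.42 to 0.31 and −0.89 for the 7824 genes tested outside chromosomes 3, 6, 8 and 11. Gdf3 and Apobec1 lay in the middle 50% of chromosome 6, Nanog lay just under it, and Dppa3 lay below −0.05.

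**Figure D5:**
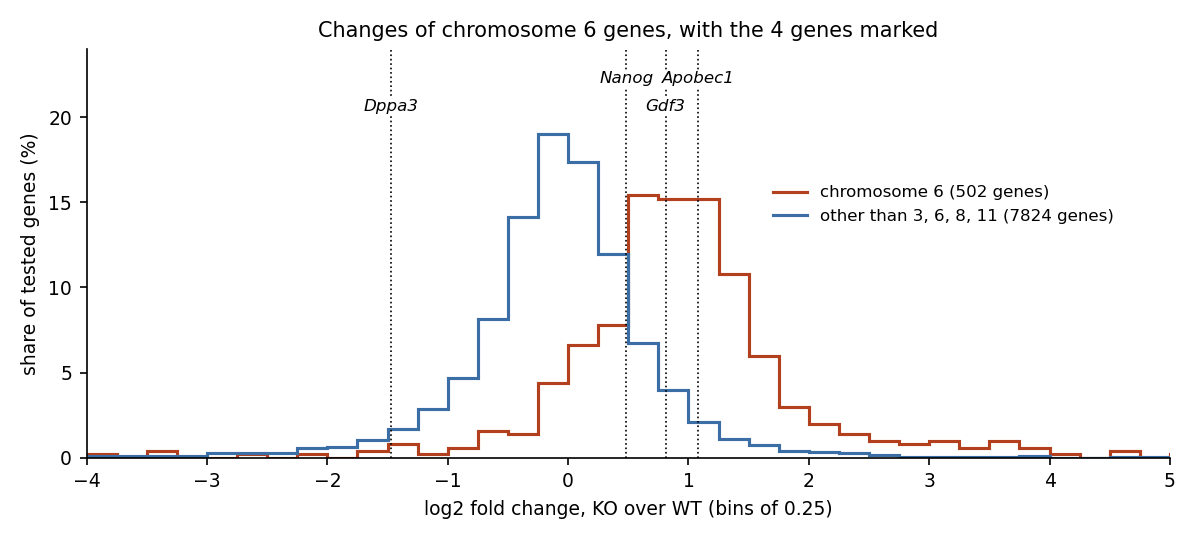
Distribution of log2 fold changes, KO over WT (x axis), of the 502 tested genes of chromosome 6 and of 7824 genes outside chromosomes 3, 6, 8 and 11, with the 4 members marked. The chromosome 6 median lies at 0.92, and Dppa3, at −1.47, lies furthest from it among the members.

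The pathway lists place the members among genes of the same roles. Of 26 genes of the NODAL and GDF3 pathway, 19 were tested, of which 4 were higher (Gdf3 among them) and 1 lower in KO, beside 10.4% higher and 9.3% lower of all genes tested, with a median log2 fold change of 0.15 against −0.02 for all genes tested. Acvr1b, a type I activin receptor, was at 1.64 (SE 0.53, adjusted p = 0.0203, edgeR) and Pcsk6, a convertase that cleaves TGF-beta family precursors, at 0.85 (SE 0.27, adjusted p = 0.0188, edgeR). DESeq2 called neither and 3 genes of the list in all, and leaving out a library took the call of Acvr1b (KO replicate 1 or WT replicate 1) and of Pcsk6 (either KO replicate or WT replicate 2), with adjusted p up to 0.267 and 0.159 over the alternatives. Skil, a corepressor of SMAD signalling, was lower in KO at −0.98 (SE 0.21, adjusted p = 0.000477, edgeR), with an adjusted p of 0.0987 without KO replicate 2. The ligand Nodal was at −0.16 and its coreceptor Tdgf1 at 0.17 on the log2 scale, neither called. Of the 19 genes tested, 4 lie on chromosomes 3, 6, 8 or 11.

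Of 26 pluripotency factors listed as partners of Nanog, all tested, 7 were higher (Nanog among them) and 2 lower in KO. Among all genes tested, 10.4% were higher and 9.3% lower. The list had a median of 0.11, and 6 of its genes lie on chromosomes 3, 6, 8 or 11. Tbx3, a T-box factor, was at 582 and 425 CPM in KO and 173 and 221 CPM in WT, higher in KO at 1.37 (SE 0.16, adjusted p = 2.92e-09, edgeR). Klf4, a Krüppel-like factor, was at 649 and 655 CPM in KO and 310 and 216 CPM in WT, higher at 1.30 (SE 0.16, adjusted p = 3.44e-09, edgeR), and Tfcp2l1, a grainyhead-related factor, was at 0.87 (SE 0.17, adjusted p = 6.95e-05, edgeR), with 0.57 without WT replicate 1. Those 3 were called under all 11 alternatives that did not centre on chromosome 6. Pou5f1 (0.66, adjusted p = 0.0840), Sox2 (−0.24) and Esrrb (0.15) were not called by edgeR. Sox2 lies on chromosome 3, whose median was 0.48. Klf5, at 0.66, was called under 8 of the 11 alternatives and lost without KO replicate 1, KO replicate 2 or WT replicate 2, where it was lowest at 0.44. Tet2, on chromosome 3 as well, was at 0.86 and its call was lost without WT replicate 1, at 0.50. Tcl1, at 0.67, was called under 4 of the 11 and lost with any library left out (0.62 to 0.73 over the alternatives). Of those lower in KO, Tet1, at −0.43, was called under 6 of the 11 and was at −0.24 without KO replicate 2 (adjusted p = 0.616, edgeR). Dppa5a, at −0.47, was called under 8 and lost without KO replicate 1, KO replicate 2 or WT replicate 1, where it was at −0.31. The list held 4 calls without KO replicate 2, the lowest number of the alternatives.

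Of 15 genes of DNA methylation around Dppa3, all tested, 3 were higher and 4 lower in KO (Dppa3 among them), beside 10.4% higher and 9.3% lower of all genes tested, with a median of −0.19. DESeq2 called 3 of them, 2 higher and 1 lower. Of the 15 genes, 4 lie on chromosomes 3, 6, 8 or 11. Dnmt3l, the cofactor of the de novo methyltransferases, was at 146 and 165 CPM in KO and 22.2 and 30.3 CPM in WT, higher in KO at 2.60 (SE 0.24, adjusted p = 3.9e-13, edgeR). Dnmt3a, a de novo methyltransferase, was lower in KO at −1.03 (SE 0.29, adjusted p = 0.00631, edgeR), but was at −0.49 (adjusted p = 0.381) without WT replicate 2 and not called by DESeq2. Besides Tet1 and Tet2, described above, Tet3, a methylcytosine dioxygenase on chromosome 6, was higher at 1.31 (SE 0.37). Tet3 was at 0.67 without WT replicate 1 (adjusted p = 0.279, edgeR) and 2.13 without WT replicate 2, its call was also lost without KO replicate 2 and by DESeq2, and with the chromosome's median at 0 it was at 0.40 (adjusted p = 0.528, edgeR). Xpo1, a nuclear export receptor on chromosome 11, was lower at −0.57, and its call was lost by DESeq2, without KO replicate 1, and at −0.31 without WT replicate 2. Uhrf1, whose protein DPPA3 binds, was at 0.39 (adjusted p = 0.0680, edgeR) and the maintenance methyltransferase Dnmt1 at −0.21, neither called. Of 13 cytidine deaminases and editing partners of Apobec1, 8 were tested and 0 called by edgeR at the adjusted threshold or by DESeq2. An unadjusted edgeR p under 0.05 was found for 1 of them. Over all 10241 genes tested, edgeR called 19.7% and DESeq2 called 1156 genes. Lists of 8 and 12 genes are too short for 0 calls to show that they were unchanged. Of 12 CoREST and LSD1 genes, all tested, 0 were called by edgeR or DESeq2 and 2 had an unadjusted edgeR p under 0.05. Kdm1a, the LSD1 gene, was at 0.01 on the log2 scale. In that list 1 gene was called with total counts alone and 1 without WT replicate 1.

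The genes whose levels over the 4 libraries were most like a member's, by the Euclidean distance between log2 CPM centred on each gene's mean, came from several chromosomes. For Nanog they included Sh3d19 at 0.0378 and Nup62 at 0.0416. For Gdf3 they were Copg1 (0.0522) and Ezh2 (0.0554), both on chromosome 6, and Ina (0.0568). For Dppa3 they were Tmem205 (0.0820), Irak1bp1 (0.0838) and Stra8 (0.129), the last on chromosome 6. For Apobec1 they were Cyb5b (0.0158), Zc3hc1 (0.0521) and Bmyc (0.0593). With 4 libraries and 10241 genes, such likeness is a description only.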

How the data were processed

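The members and gene lists were chosen with earlier results of these data known. The authors deposited RNA-seq values as raw counts of reads, a row per gene symbol. The peak lists gave, as deposited by the authors, a fold (the ratio of pull-down to control at the summit) and a −log10 q per peak. The submitters' processing notes name Trimmomatic 0.36, Bowtie2 2.3.4.1, MACS2 2.1.1.20160309, STAR 2.5.2b, SAMtools 1.8, bedtools 2.25.0, HOMER, Subread and featureCounts, with builds GRCm38 and mm10. The control of each peak call, the use of strand in counting, the collapse of molecular identifiers and the treatment of reads shared with copies are not stated in the sources at hand. RefSeq lists the pseudogenes Nanog-ps1, Nanog-ps2 and Dppa3-ps, so Nanog and Dppa3 values are uncertain in that respect.

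Of 25131 rows, 26 had a date for a symbol (0.136% to 0.158% of counts). RefSeq intervals of GRCm38.p6 placed 25027 rows. Counts were filtered (filterByExpr, 10241 genes), TMM-scaled and tested, KO over WT, two-sided, with edgeR 4.0.16 in R 4.3.3. DESeq2 1.42.0 and limma 3.58.1 were alternatives. The test was checked on simulated data. The F statistic and the fold change gave the SE. CPM are per 1000000 counts. The count of peaks used an overlap with the window of at least 1 bp. Named genes were the 4 members and Rcor2, all genes of the window and the first expressed gene beyond each edge, the 3 nearest genes in profile per member, and called members of the lists; some of these are not reported here. Replicates of a group differed beyond sampling noise (chi-square per degree of freedom 4.22 in KO and 4.78 in WT).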

Additional observations from a re-analysis of the deposited data

How the results depend on the processing

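Dppa3 and Gdf3 kept their direction and call under all 11 alternatives without centring on chromosome 6 (other scalings and tools, no filter, each library left out, the replicate block), with log2 fold changes of −1.80 to −1.21 and 0.76 to 0.86. Apobec1 was called under none (1.03 to 1.14). Nanog was called in 9 of 11; leaving out a library gave 0.46 to 0.52, with adjusted p of 0.00903 to 0.184 (edgeR). Centring on chromosome 6 turned Nanog to −0.44, Gdf3 to −0.11 and Necap1 to −0.17, as its construction subtracts the chromosome's median. Rcor2 was called only with total counts alone, at −0.64 (adjusted p = 0.0466, edgeR). Rimklb ranged from −0.12 to 0.0057 with a library left out. The number of genes called was 1156 with DESeq2 and 1035 to 1699 with a library left out, the lowest without KO replicate 1, against 2014. The share of calls higher in KO was 52.7%, and 46.2% to 59.1% under other scalings. The chromosome 6 median was 0.87 with total counts alone, 0.97 with scaling without chromosomes 3, 6, 8 and 11, 0.87 with no filter and 0.90 to 0.96 with a library left out. The window held 22 RCOR2 peaks with a −log10 q of at least 5 and 15 with a fold of at least 5, against 50. Within 1 kb of a member, 3 summits had a −log10 q of at least 5, against 9 in all. The causes of these moves were not tested. Replicates that share a number did not deviate together from their group means (correlation −0.05 over the genes tested), so the number is no evidence of a pairing. With the replicate block 1822 genes were called, and Nanog had an adjusted p of 0.0306 (edgeR), and the calls on the other members did not change. Of 233 values compared, 204 stayed within the limits set: the same direction and side of the threshold for a test, 1.5 times for a count, and the spread between libraries for a median. Apobec1 had 7 to 32 counts per library, and the part of that depth in its missed call was not tested.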
